A study of Mus musculus with 15 samples.

Results

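The complement system of the ageing mouse kidney was followed through 9 genes, C1qa, C1qb, C1qc, C4b, C2, C3, Cfb, Cfi and Cd55, out of 33058 genes with a value above 0 in at least 1 of 15 kidneys. The 9 were taken as a named list, and each gene's value is the sum of the FPKM (a level in fragments, scaled to transcript length and to library size) of its transcripts that match or share exons with the gene. The kidneys came from male C57BL/6 mice (C57BL/6J in the methods of the study) with no treatment named, 5 at 3 months, 5 at 12 months and 5 at 24 months of age, with 1 RNA-seq library per mouse and no transgene or deletion in any group. The study itself set 3-month-old (young) against 24-month-old (old) kidneys, and the 12-month-old mice are an age in between. Mice are named here by age and by the replicate number of their labels, which is 5 to 9, 17 to 21 or 31 to 35.

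Complement is a cascade of plasma and tissue proteins that tags microbes and damaged cells and can lyse them. C1q, built from the products of C1qa, C1qb and C1qc, opens the classical pathway, which then cleaves C4 and C2, while factor B (Cfb) drives the alternative pathway, and both routes meet at C3, the central protein. Factor I (Cfi) and Cd55 restrain the cascade by breaking down or dissociating its convertases. The liver makes most circulating complement, but macrophages are the main source of C1q, and kidney tubule cells are known to make C3, C4 and factor B.

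All 9 genes were measured in every kidney, and none of them changed with age by the test used here. Of the 31755 genes tested between 24 and 3 months, 386 were called (1.22%) at a Benjamini-Hochberg adjusted p under 0.05 in limma, and 0 of the 9 complement genes were among them. In the same comparison 0 of the 9 had an unadjusted p under 0.05, a limit that 14.9% of all genes passed. Between 12 and 3 months 79 genes (0.25%) were called and again 0 of the 9, while 1 of the 9 (C1qa) had an unadjusted p under 0.05 beside 14.3% of all genes. Between 24 and 12 months 1 gene (0.0031%) was called, which was no complement gene, and 0 of the 9 had an unadjusted p under 0.05 beside 6.43% of all genes. The values spread widely between mice of the same age, and the order of the mice was shared by some of the genes and not by others. The p-values set the difference between ages against the spread between these mice. Each library was made from bulk tissue, so a lower value can mean fewer cells that express a gene or less of its RNA per cell, and these cannot be told apart.

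The libraries held between 5.03 and 6.13 Gb of aligned bases at 3 months, 5.84 to 8.03 Gb at 12 months and 6.07 to 7.33 Gb at 24 months. The tissue label was matched by kidney epithelial markers (10 genes, such as Umod and Slc34a1), whose summed level lay between 2477 and 3116 FPKM in all 15 mice. Among hepatocyte markers Ahsg was at or near 0 and Alb between 1.51 and 5.55 FPKM, while the 7 hepatocyte markers together, several of which kidney expresses, summed to 42.1 to 101 FPKM. Of 4 adrenal markers the enzymes Cyp11a1, Cyp11b1 and Cyp21a1 were at or near 0 (at most 0.0401 FPKM in any mouse), and only Star was not. Star was at 1.05 to 1.75 FPKM at 3 months and 1.87 to 3.24 FPKM at 24 months, without overlap (adjusted p = 0.0984, limma). The 3-month-old mice stood apart in Ighm, an immunoglobulin gene of B-lineage cells, which was called higher at 24 months (adjusted p = 0.0306, limma). Of 6 handling and stress genes 1 (Hspa1b) was called lower at 24 months (adjusted p = 0.0211, limma). Among the same 6 genes 0 had a higher mean log2 value at 24 than at 3 months, and the median log2 fold change was -1.64. An unadjusted p under 0.05 (limma) was reached by 5 of the 6, beside 14.9% of all genes. The part of these differences in the values of the complement genes was not tested.

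The levels of the 9 genes, averaged over 15 mice, spanned from 3.93 FPKM for C2 to 67.0 FPKM for Cfb. Cfb was above C3, the next gene, in 14 of 15 mice. C3 (15.7 ± 11.6 FPKM, SD, n = 15) was above C4b (12.9 ± 10.1 FPKM) in 12 of 15. Below these the order was not held from mouse to mouse. C4b exceeded C1qb (11.8 ± 7.86 FPKM) in 6 of 15, C1qb exceeded Cfi (6.83 ± 4.91 FPKM) in 9 of 15, and Cfi exceeded C1qa (6.67 ± 4.97 FPKM) in 7 of 15. C1qc (4.46 ± 2.96 FPKM) and Cd55 (3.95 ± 1.01 FPKM) lay close to C2 (3.93 ± 2.05 FPKM).

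**Figure D1:**
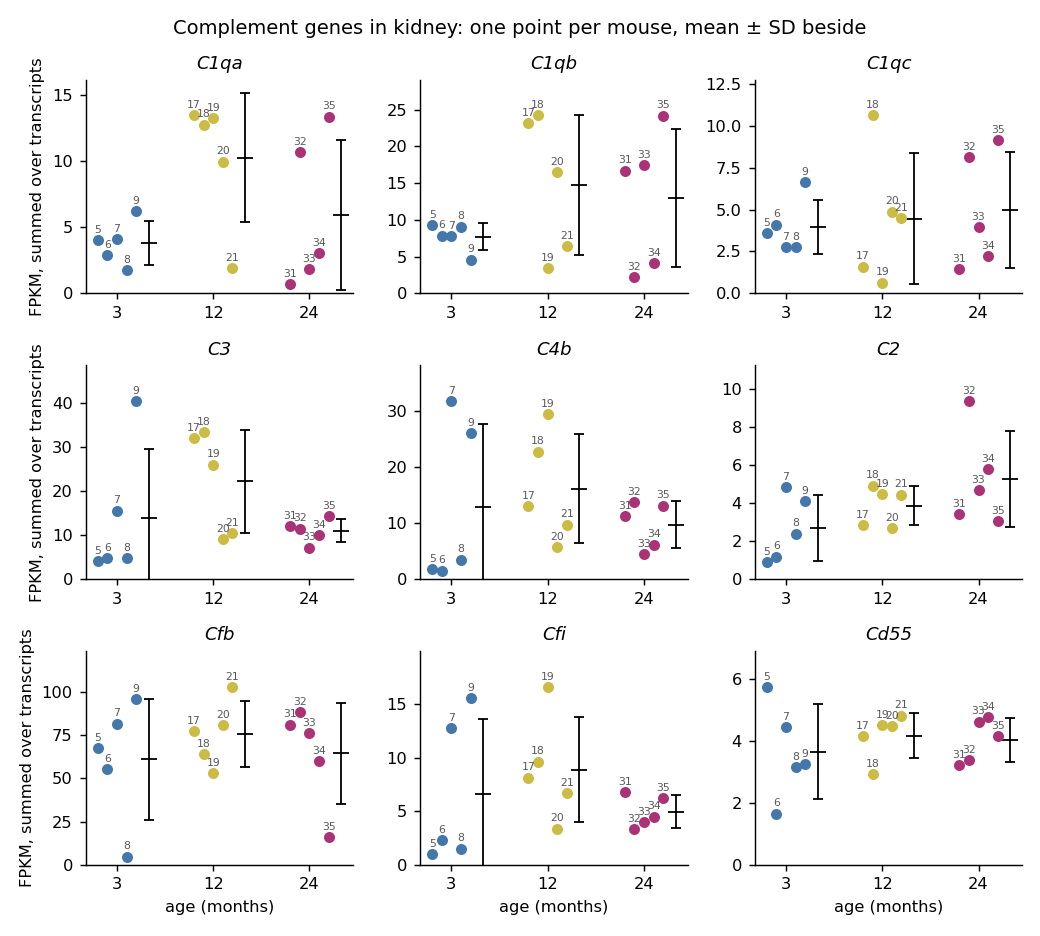
FPKM of each of the 9 complement genes against age in months, with 1 point per mouse, numbered by replicate, and the mean ± SD of the 5 mice beside it (SD bars are cut at 0). The 3 ages overlap for every gene, the points of C3, C4b and Cfi are widest at 3 months and those of C1qa and C1qb are narrowest there.

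The 3 C1q genes, which encode the A, B and C chains of the recognition molecule, lie next to each other on the minus strand of chromosome 4 (GRCm38), C1qb at chr4:136880129-136886187, C1qc at chr4:136889804-136893065 and C1qa at chr4:136895917-136898803, within 18675 bases. The 300 bases around the RefSeq start of C1qb and C1qc (250 before and 50 after it) are shown because neighbouring genes for 1 protein differed here in which mouse was high. Both are RefSeq sequences of GRCm38.p6, minus strand, and capitals mark GAGGAA, the core motif of PU.1 (a transcription factor of macrophages and B cells), on either strand.
C1qb, chr4:136886151-136886450: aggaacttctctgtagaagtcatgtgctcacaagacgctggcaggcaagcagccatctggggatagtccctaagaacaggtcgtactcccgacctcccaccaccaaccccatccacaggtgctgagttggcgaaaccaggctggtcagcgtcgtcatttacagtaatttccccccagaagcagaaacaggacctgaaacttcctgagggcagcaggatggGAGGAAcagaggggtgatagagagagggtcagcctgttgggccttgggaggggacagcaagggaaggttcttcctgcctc
C1qc, chr4:136892865-136893164: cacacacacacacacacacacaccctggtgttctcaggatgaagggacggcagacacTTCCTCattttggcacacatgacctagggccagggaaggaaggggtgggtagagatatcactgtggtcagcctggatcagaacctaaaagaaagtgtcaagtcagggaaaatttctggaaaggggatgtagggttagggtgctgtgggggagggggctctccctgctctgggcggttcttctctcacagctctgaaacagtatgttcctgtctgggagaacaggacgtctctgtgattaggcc
The motif stood at bases 221 to 226 of the C1qb window and, as its reverse complement, at bases 58 to 63 of the C1qc window. Of all 32851 promoters of the same length, 28.3% hold it. The RefSeq start used for C1qc lies inside exon 1 of its main measured transcript (chr4:136892844-136893065). Much of the C1qc window is therefore exon sequence of that transcript.

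C1qa was measured at 4.04, 2.91, 4.08, 1.73 and 6.21 FPKM in 3-month-old replicates 5 to 9. In 12-month-old replicates 17 to 21 it stood at 13.5, 12.8, 13.3, 9.97 and 1.91 FPKM. In 24-month-old replicates 31 to 35 it was 0.709, 10.7, 1.84, 3.05 and 13.4 FPKM. At 12 months 4 of 5 mice lay above every 3-month-old mouse and replicate 21 lay within their range, while at 24 months 2 mice were high and 3 were low. The log2 fold change of 12 against 3 months was 1.10 ± 0.46 (SE) with an adjusted p of 0.316 in limma, and the exact permutation test gave p = 0.0556 (2-sided, unadjusted). This was the single value among the 9 genes and 3 comparisons that had both an unadjusted p under 0.05 (here 0.0377) and an absolute log2 fold change above 1, limits that 0.499% of all genes met. Without replicate 21 the change was 1.54, with an adjusted p of 0.083. The change between 24 and 3 months was 0.15 (95% confidence interval -1.15 to 1.45).

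C1qb, encoding the B chain, followed another order of mice. It was at 9.30, 7.85, 7.81, 9.09 and 4.57 FPKM at 3 months, at 23.2, 24.2, 3.39, 16.5 and 6.46 FPKM at 12 months, and at 16.7, 2.18, 17.4, 4.14 and 24.2 FPKM at 24 months. The young mice were within a factor of 2.03 of each other, whereas the old mice differed by a factor of 11.1, with 3 mice above and 2 below all young mice. The change from 3 to 24 months was 0.32 ± 0.56 (SE) on the log2 scale with an adjusted p of 0.808 (limma).

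C1qc, encoding the C chain, was the lowest of the 3. Its values were 3.59, 4.11, 2.76, 2.74 and 6.62 FPKM at 3 months, 1.59, 10.6, 0.643, 4.88 and 4.51 FPKM at 12 months, and 1.45, 8.11, 3.95, 2.23 and 9.16 FPKM at 24 months. The ages overlapped over most of their range, and the change from 3 to 24 months was 0.11 ± 0.41 (SE, adjusted p = 0.919, limma).

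Although their products form 1 protein, the 3 genes were high together in some kidneys and not in others. In 12-month-old replicate 18 C1qa stood at 12.8 FPKM, and C1qb (24.2 FPKM) and C1qc (10.6 FPKM) were at their highest of all 15 mice. In 12-month-old replicate 19 C1qa stood at 13.3 FPKM, C1qb at 3.39 FPKM and C1qc at 0.643 FPKM. In 24-month-old replicate 31 the order was turned, with C1qb at 16.7 FPKM and C1qa at 0.709 FPKM. In 24-month-old replicate 35 all 3 were high again. After each age was centred on its mean, Pearson's r over 15 mice was -0.05 for C1qa and C1qb (Spearman's rho 0.05), 0.39 for C1qa and C1qc (rho 0.40) and 0.18 for C1qb and C1qc (rho 0.20). The adjusted permutation p-values over the 10 pairs examined were 0.889, 0.571 and 0.742 for r. Leaving out the 2 mice farthest from the median of the first gene gave -0.11, 0.42 and 0.17. The sequencing coverage behind the single C1qa transcript was between 5.2-fold and 106-fold. The C1qa value did not follow Csf1r, the receptor that marks macrophages, either (r = 0.12, rho 0.20, adjusted permutation p = 0.742 for r).

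C4b encodes C4, which becomes part of the classical C3 convertase and lies at chr17:34728380-34743882 on the minus strand. It was at 1.78, 1.48, 31.7, 3.44 and 25.9 FPKM in 3-month-old replicates 5 to 9. At 12 months the values were 13.0, 22.7, 29.4, 5.71 and 9.68 FPKM, and at 24 months 11.2, 13.7, 4.41, 6.14 and 13.1 FPKM. The young kidneys fell into 2 ranges, with replicates 7 and 9 above 25 FPKM and the other 3 below 4 FPKM, and all old kidneys lay between these ranges. The log2 fold change of 24 against 3 months was 0.37 ± 0.78 (SE, adjusted p = 0.841, limma), with an interval from -1.39 to 2.13. C4a, a near-identical neighbour, was listed at 0.48 to 3.18 FPKM, and how reads were divided between the paralogues is uncertain.

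C3 is the protein on which all pathways converge, and its gene lies at chr17:57203970-57228136 on the minus strand. Its promoter window is shown because C3 moved with 2 other members between mice. Capitals mark TTGCNNAA, the motif of C/EBP factors, and TATAAA, the TATA box (RefSeq, GRCm38.p6, minus strand).
C3, chr17:57228087-57228386: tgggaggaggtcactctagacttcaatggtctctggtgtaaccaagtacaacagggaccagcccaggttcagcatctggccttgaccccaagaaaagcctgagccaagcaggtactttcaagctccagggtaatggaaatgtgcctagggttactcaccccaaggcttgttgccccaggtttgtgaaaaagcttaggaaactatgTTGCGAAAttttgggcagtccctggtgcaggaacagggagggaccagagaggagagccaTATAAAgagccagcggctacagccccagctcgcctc
The C/EBP motif occupied bases 206 to 213 and the TATA box bases 265 to 270, after the annotated start. Of all promoters of this length 10.8% hold the former and 13.6% the latter on either strand. The motifs TTCNNNGAA (STAT), TGANTCA (AP-1), the interferon-stimulated response element and the NF-kB motif, which 8.30%, 7.81%, 3.44% and 0.411% of promoters hold, had no match in the windows of C1qb, C1qc, C3 or Cd55. The windows of the other 5 genes were not analysed here.

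C3 was at 4.12, 4.69, 15.6, 4.73 and 40.5 FPKM at 3 months. At 12 months it was at 32.1, 33.5, 26.1, 9.09 and 10.5 FPKM, and at 24 months at 12.1, 11.5, 7.15, 10.1 and 14.3 FPKM. Replicates 7 and 9 were again the highest young kidneys, and replicates 17, 18 and 19 were the highest at 12 months. The means were 13.9 ± 15.6, 22.2 ± 11.7 and 11.03 ± 2.65 FPKM (SD, n = 5 each). The log2 fold change was 0.20 ± 0.56 (SE) for 24 against 3 months, 0.99 ± 0.64 for 12 against 3 months and -0.80 ± 0.38 for 24 against 12 months, with adjusted p-values of 0.887, 0.526 and 0.789 (limma). The mean in FPKM was lower at 24 than at 3 months while the mean on the log scale was higher, and 1 young mouse held 40.5 FPKM.

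Cfi encodes factor I, the protease that inactivates C3b and C4b, on chr3:129835884-129875332, plus strand. Its levels were 1.01, 2.32, 12.8, 1.52 and 15.6 FPKM at 3 months, 8.15, 9.65, 16.6, 3.37 and 6.67 FPKM at 12 months and 6.82, 3.31, 3.97, 4.51 and 6.25 FPKM at 24 months. The high mice at 3 and 12 months were those of C3 and C4b. The change from 3 to 24 months was 0.16 ± 0.60 (SE, adjusted p = 0.914, limma).

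C3, C4b and Cfi, which lie on chromosomes 17 and 3, varied together among mice of 1 age. The age-centred correlation over 15 mice was r = 0.87 (rho 0.88) for C3 and C4b and r = 0.87 (rho 0.87) for C3 and Cfi, and both passed with an adjusted permutation p of 0.0085 for r and 0.00465 for rho. Without the 2 mice farthest from the median of C3 the values were 0.84 and 0.80. Since the young mice fell into 2 ranges, r was also taken over the 10 mice of 12 and 24 months alone, where it was 0.80 and 0.70. C4b and Cfi, a pair added after their values were seen, had r = 0.91 over 15 mice. By contrast C3 did not move with the value listed under Cfb (r = 0.22, rho 0.05, adjusted permutation p = 0.742 for r). Nor did it move with Lcn2, a marker of injured tubules (r = 0.27, rho 0.41, adjusted permutation p = 0.742 for r). In replicates 8 and 35, however, 84.7% and 72.6% of the summed FPKM of C2, Cfb and Gm20547 stood under Gm20547, a read-through gene described below. The correlation of C3 with that sum was not computed. C1qa and C3 had r = 0.47 (rho 0.51) with an adjusted permutation p of 0.0375 for r and 0.0743 for rho. The call for r held with median scaling (adjusted permutation p = 0.0279). It was lost in TPM, with a pseudocount of 0.1 and without centring on age. The points share libraries, and summed macrophage markers were 65.0 and 41.1 FPKM in young replicates 7 and 9 against 34.1 to 43.4 FPKM in the 3 young mice with low C3, whereas hepatocyte markers summed to 64.0 and 42.1 FPKM against 49.9 to 101 FPKM. Of the other marker lists, T cell markers did separate these mice, at 3.09 and 2.95 FPKM against 0.846 to 1.67 FPKM. So did fibroblast markers by a small gap, at 37.0 and 45.6 FPKM against 20.03 to 36.6 FPKM. Lists of other complement genes by role (described below) were also summed. The start of the classical and lectin pathways stood at 20.9 and 24.0 FPKM against 12.0 to 16.4 FPKM. Terminal components stood at 21.5 and 18.7 FPKM against 14.4 to 18.5 FPKM, and the other roles did not separate these mice. Their part in the shared pattern was not tested.

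**Figure D2:**
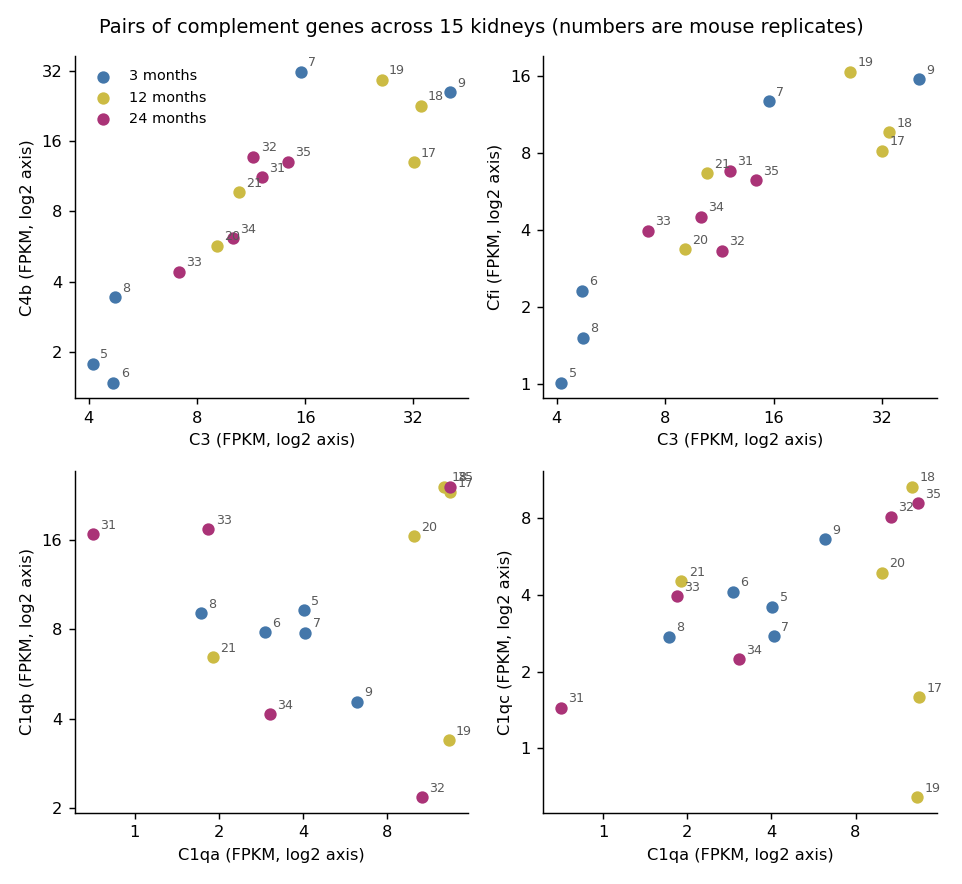
FPKM of C3 against C4b and Cfi (top) and of C1qa against C1qb and C1qc (bottom), on log2 axes, with 1 point per mouse coloured by age and numbered by replicate. The C3 pairs run along a diagonal from replicates 5, 6 and 8 to replicates 9, 18 and 19, and the C1q pairs show no such line.

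The spread between mice of an age is itself a difference between the genes. The SD of log2(FPKM + 1) of C4b was 1.81 at 3 months, 0.88 at 12 months and 0.64 at 24 months. For C3 it was 1.32, 0.86 and 0.34, and for Cfi 1.43, 0.73 and 0.36. Thus the 3 genes were most uneven in the young kidneys, and so were the values listed under Cfb (1.68, 0.36 and 0.99) and C2 (0.72, 0.32 and 0.54). The spread of Cfb includes replicates 8 and 35, in which most of the FPKM of C2, Cfb and Gm20547 stood under Gm20547 (described below). The summed FPKM of C2, Cfb and Gm20547 had SDs of 0.495, 0.128 and 0.299. C1qa went the other way, with 0.52, 0.99 and 1.32, as did C1qb with 0.36, 1.12 and 1.31. The median SD of the 13446 genes with a mean of at least 1 FPKM was 0.24, 0.22 and 0.22. At 3 months 99.5% of these genes had a smaller SD than C4b, and at 24 months 98.6% had a smaller SD than C1qa. Cd55, with 0.50, 0.23 and 0.21, had the smallest SD of the 9 at 12 and 24 months, but at 3 months C1qb and C1qc (0.42) were below it. These are descriptions of 5 mice each, and a change of spread with age was not tested.

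Cfb encodes factor B, the protease part of the alternative C3 convertase, and C2 its counterpart in the classical pathway. Both lie on the minus strand of chromosome 17, C2 at chr17:34862604-34898265 and Cfb at chr17:34856374-34862518, with the end of C2 and the start of Cfb 86 bases apart. The annotation also holds Gm20547, a read-through gene (chr17:34856412-34882042) whose transcript runs from C2 exons into Cfb exons. The joint of the annotated read-through transcript is shown because it ties C2 to Cfb in 1 RNA. It links exon 16 of C2 (chr17:34863345-34863474) to exon 2 of Cfb (chr17:34861731-34861964), and the 20 bases of C2 are in lower case and the 20 bases of Cfb in capitals (GENCODE transcript on GRCm38, 5′ to 3′).
Read-through joint: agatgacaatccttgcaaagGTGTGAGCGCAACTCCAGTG

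Cfb was at 67.5, 55.2, 81.6, 4.72 and 95.9 FPKM in 3-month-old replicates 5 to 9, at 77.4, 64.1, 52.9, 80.6 and 102.9 FPKM in 12-month-old replicates 17 to 21 and at 81.0, 88.2, 76.3, 60.1 and 16.0 FPKM in 24-month-old replicates 31 to 35. It was the most abundant of the 9, and only replicates 8 and 35 were below 50 FPKM. Gm20547 was at 11.8, 12.0, 12.7, 39.4 and 13.6 FPKM in the young mice, at 20.4, 27.8, 39.0, 18.9 and 12.7 FPKM at 12 months and at 20.3, 25.8, 15.8, 30.6 and 50.4 FPKM in the old mice. It was highest in the 2 mice in which Cfb was lowest, where it took 84.7% and 72.6% of the summed FPKM of C2, Cfb and Gm20547, against 10.6% to 40.4% in the other 13. Not all of the Gm20547 value is read-through: an assembled transcript of 35 exons over both genes held 56.7% of it and the annotated one 5.08%. Another 4 assembled transcripts, which start downstream of the C2 exons and lie over Cfb, held 14.6%, 12.9%, 6.89% and 1.47%. In replicates 8 and 35 the 35-exon transcript was at 34.6 and 40.8 FPKM. The age-centred r of Cfb and Gm20547 was -0.86 over 15 mice, given as a description since both are parts of 1 locus.

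Because FPKM divides by length, and a read-through transcript of 6465 bases stood beside Cfb transcripts of 2737 bases, the 3 genes were also summed after each FPKM was multiplied by transcript length in kb. This sum, in FPKM times kb, was 243.0, 204.4, 278.5, 256.1 and 331.2 at 3 months, 318.6, 289.9, 336.3, 300.4 and 344.0 at 12 months and 330.8, 340.2, 289.6, 285.7 and 335.2 at 24 months. It varied 1.68-fold over all 15 mice, where Cfb alone varied 21.8-fold, and replicates 8 and 35 no longer stood apart. The length-weighted sum was higher at 12 than at 3 months by 0.29 ± 0.12 on the log2 scale (SE, adjusted p = 0.319, limma; exact permutation p = 0.0397, unadjusted) and at 24 than at 3 months by 0.28 ± 0.13 (adjusted p = 0.334; exact permutation p = 0.0476, unadjusted). It was chosen after the values were seen. For Cfb itself the change from 3 to 24 months was 0.35 ± 0.80 (SE, adjusted p = 0.856, limma), and it turned to -0.39 without replicate 8.

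**Figure D3:**
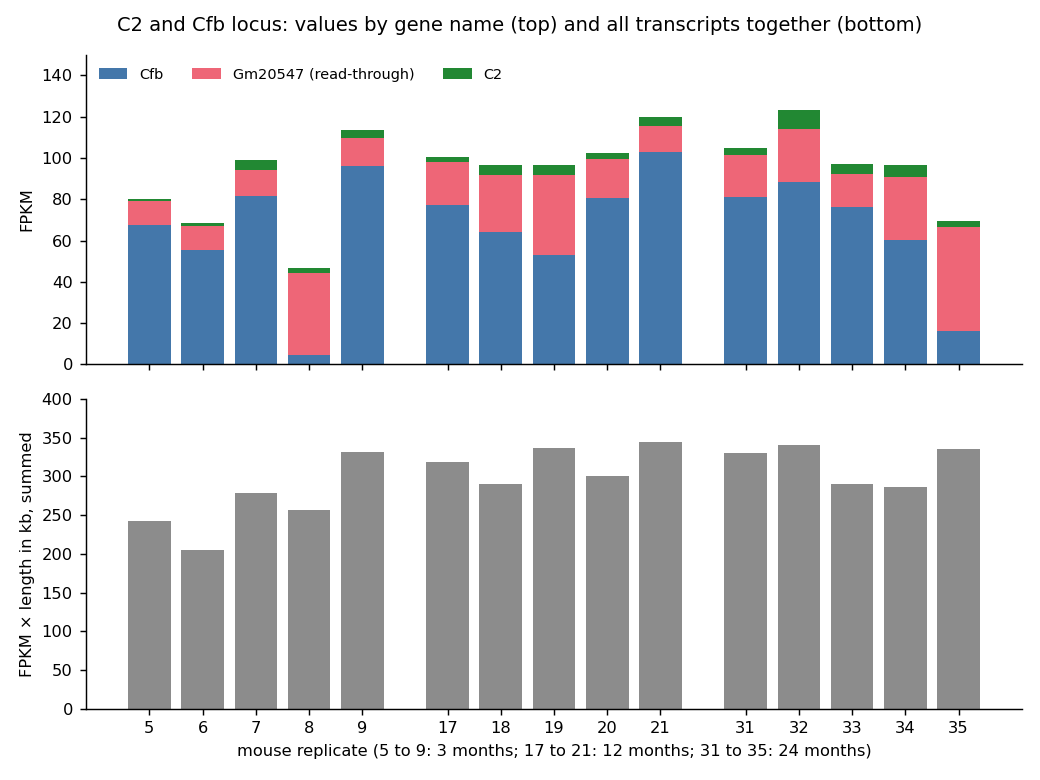
Stacked FPKM of Cfb, Gm20547 and C2 in each of 15 mice (top), and the sum of FPKM times transcript length in kb over the same transcripts (bottom), with mouse replicates on the x axis grouped by age. Replicates 8 and 35 carry most of their FPKM under Gm20547, and their bars in the lower panel reach 256.1 and 335.2, within the range of the others.

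C2 had the largest change of the 9 between 3 and 24 months, yet it was also the least complete measurement. It was at 0.876, 1.18, 4.83, 2.39 and 4.11 FPKM at 3 months, at 2.83, 4.91, 4.46, 2.66 and 4.44 FPKM at 12 months and at 3.43, 9.35, 4.66, 5.78 and 3.03 FPKM at 24 months. All 5 old mice were above the median of the young mice, and the ages overlapped. The log2 fold change was 0.82 ± 0.37 (SE) with an adjusted p of 0.346 in limma and an exact permutation p of 0.0873 (unadjusted). The full-length transcript with 18 exons held 5.04% of the C2 value, and 3 short annotated transcripts of 479 to 850 bases held 47.5%, 20.8% and 16.7%, while assembled transcripts over C2 exons were also listed under Gm20547. C2 and Cfb did not move together under their own names (r = 0.23, rho 0.26, adjusted permutation p = 0.742 for r).

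Cd55 encodes decay-accelerating factor, a membrane-anchored protein that dissociates the C3 convertases, at chr1:130439027-130462744 on the minus strand. It was at 5.74, 1.66, 4.45, 3.17 and 3.25 FPKM at 3 months, at 4.14, 2.92, 4.51, 4.47 and 4.82 FPKM at 12 months and at 3.22, 3.37, 4.62, 4.77 and 4.16 FPKM at 24 months. Its interval was the narrowest of the 9, with a log2 fold change of 0.17 from 3 to 24 months (95% confidence interval -0.35 to 0.68), that is between 0.787-fold and 1.60-fold.

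Across the list, 9 of 9 genes had a higher mean log2 value at 24 than at 3 months, with a median log2 fold change of 0.20 beside 0.02 for all genes tested, and 8 of 9 at 12 months (median 0.75 beside 0.02). Among genes with a mean of at least 1 FPKM, as all 9 had, these medians were 0.05 and 0.08. Higher values were also more common outside the list: of the 386 genes called between 24 and 3 months, 319 were higher at 24 months. The share of all genes with a higher mean was not counted. In mean FPKM 6 of 9 were higher at 24 than at 3 months, since C3, C4b (9.71 against 12.9 FPKM) and Cfi (4.97 against 6.63 FPKM) were lower on that scale. From 12 to 24 months 7 of 9 were lower, and the median was -0.40 beside 0.00 for all genes. The comparisons with 3 months share the 5 young mice, and the genes are not independent of each other. The intervals were wide. That of C4b from 3 to 24 months ran from 0.383-fold to 4.37-fold and that of C3 from 0.481-fold to 2.72-fold. Changes within these intervals were not excluded with 5 mice per age.

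**Figure D4:**
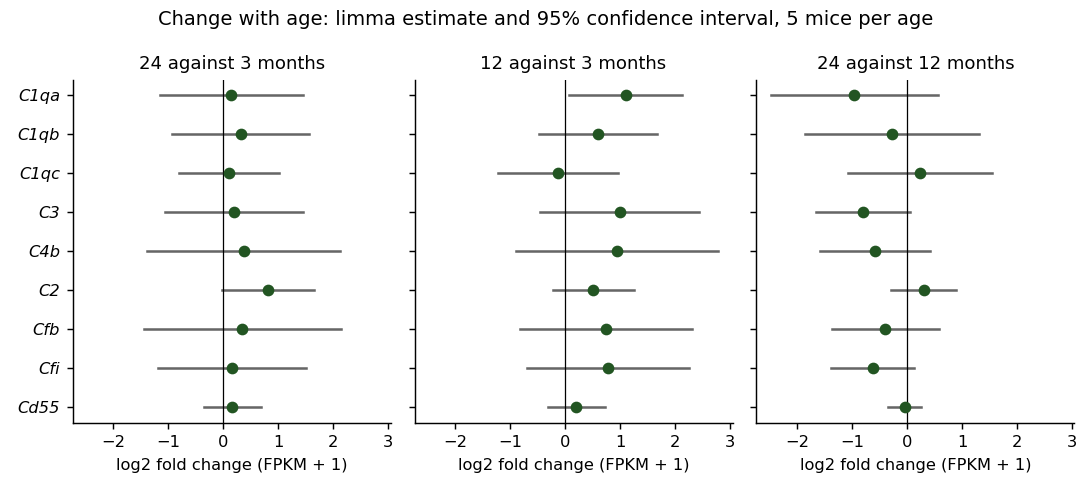
Log2 fold change of the 9 genes in each of the 3 comparisons of ages on the log2(FPKM + 1) scale, with the limma estimate as a point and its 95% confidence interval as a line. The intervals cross 0 for 9 of 9 genes in the comparisons of 24 with 3 and with 12 months, and for 8 of 9 in that of 12 with 3 months, where C1qa ran from 0.08 to 2.13.

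The gene values were made of 40 transcripts, 33 of them annotated, and 16 were above 0 in all mice. At least 10% of a gene's value was held by each of 16 transcripts. Between 24 and 3 months 0 of the member transcripts were called beside 0.0192% of all transcripts, and 0 were called between 12 and 3 months (0.00481% of all) or between 24 and 12 months (0.00559% of all), with smallest adjusted p-values of 0.505, 0.502 and 0.838 (limma) and with 2, 9 and 1 transcripts at an unadjusted p under 0.05, a limit passed by 7.9%, 7.46% and 4.47% of all transcripts. C4b, Cfi and C1qa were each measured by 1 transcript that held 95.2% or more of the value. For C3 the full transcript of 41 exons held 80.3%, and an assembled transcript of 16 exons held 17.6%. For Cfb the value was divided between ENSMUST00000025229 (2737 bases, 72.6%) and ENSMUST00000128767 (2751 bases, 11.4%), which differ by few bases at their ends. The latter was above 0 in 3 mice, replicates 9, 18 and 21, at 46.5, 18.6 and 49.1 FPKM, each close to the former in the same mouse (47.2, 18.7 and 49.9 FPKM). For C1qc the main transcript was at 0 in 2 young mice and assembled forms took its place, so single transcripts of these genes are less certain than their sums. For C1qb the main transcript held 86.1% and an assembled form of 2508 bases 13.9%. Of Cd55 the 10-exon transcript held 67.2%.

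Circular RNAs, in which a later exon is joined back to an earlier one, were listed from C2 alone among the 9 genes, with 1 circle under C2 and 1 under Gm20547 of 11929 circles in all. Both use exons of C2 (the longer spans exons 4 to 8, listed as 3 exons of Gm20547), and their joints are shown to make clear that they share one end. Lower case marks the last 20 bases of exon 8 and capitals the first 20 bases of exon 7 or exon 4 (GENCODE transcript on GRCm38, minus strand).
Circle of exons 7 to 8, chr17:34872367-34873600: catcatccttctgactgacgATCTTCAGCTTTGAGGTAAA
Circle of exons 4 to 8, chr17:34872367-34876510: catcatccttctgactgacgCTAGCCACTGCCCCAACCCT
The shorter circle had estimated counts of 28.3, 15.1, 35.5, 30.9 and 55.3 at 3 months, 66.5, 47.4, 59.7, 26.5 and 54.3 at 12 months and 42.0, 51.0, 41.5, 53.8 and 46.3 at 24 months. The longer one had 121.8, 74.9, 149.3, 110.9 and 244.1 at 3 months, 255.2, 253.5, 265.3, 179.8 and 285.8 at 12 months and 256.0, 273.4, 254.0, 243.6 and 243.3 at 24 months. For the longer circle 4 of 5 young mice were below all 10 older mice, and replicate 9 reached their range, so the ages overlapped. These estimated counts were not scaled to library depth here. The libraries held 5.03 to 6.13 Gb of aligned bases at 3 months, against 5.84 to 8.03 Gb at 12 months and 6.07 to 7.33 Gb at 24 months. No test was made on these 2.

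The rest of the pathway was read from a list of 48 other complement genes, of which 46 were in the files. Between 24 and 3 months 1 of 46 rose and 0 fell, and 11 had an unadjusted p under 0.05 (23.9% beside 14.9% of all genes). The median log2 fold change was 0.15. Between 12 and 3 months 0 of 45 were called and 11 had an unadjusted p under 0.05 (24.4% beside 14.3% of all genes), and between 24 and 12 months 0 of 46 and 4 (8.7% beside 6.43%). The gene that rose was C9, which forms the pore of the membrane attack complex, from 0.0382 ± 0.0437 FPKM at 3 months to 0.204 ± 0.0517 FPKM at 24 months (SD, n = 5 each, adjusted p = 0.0343 in limma). The ages did not overlap, but all values were below 0.3 FPKM, 2 young mice were listed at 0, and the call was lost without any of 7 of the 10 mice. By role, the called genes were 0 of 13 for the start of the classical and lectin pathways, 0 of 2 for the alternative pathway, 1 of 7 terminal components, 0 of 9 soluble regulators, 0 of 6 membrane regulators and 0 of 9 receptors.

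The most abundant genes of each role give its level. C1s1, a protease of the C1 complex, was at 5.55 ± 1.42 FPKM at 3 months and 7.15 ± 0.699 FPKM at 24 months (adjusted p = 0.301, limma). Cfd, the protease that activates factor B, was at 2.16 ± 2.02 and 3.11 ± 1.12 FPKM (adjusted p = 0.601, limma). C7 stood at 6.91 ± 2.27 and 7.98 ± 1.23 FPKM (adjusted p = 0.662, limma). Clu, encoding clusterin, which blocks the attack complex, was the most abundant of the listed complement genes at 80.2 ± 21.3 and 76.2 ± 4.66 FPKM (adjusted p = 0.929, limma). Cr1l, encoding the membrane regulator Crry, was at 22.6 ± 2.02 and 24.8 ± 2.52 FPKM (adjusted p = 0.558, limma), above Cd55 in level. Itgb2, a chain of the complement receptors 3 and 4, was at 1.81 ± 0.839 and 2.73 ± 0.538 FPKM (adjusted p = 0.349, limma).

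**Figure D5:**
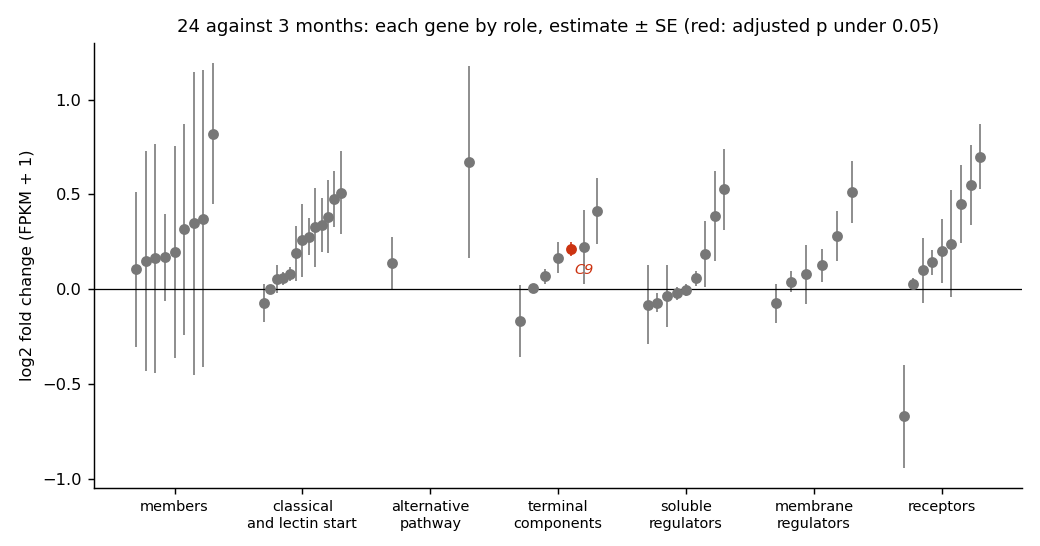
Log2 fold change of 24 against 3 months on the log2(FPKM + 1) scale for the 9 members and for the other complement genes by role, with the limma estimate ± SE and 1 point per gene. C9, in red, is the 1 gene with an adjusted p under 0.05, and the SE of the members ran from 0.23 (Cd55) to 0.80 (Cfb).

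Of 12 cytokines and factors known to induce complement genes, 11 were in the files and 0 were called in any comparison, while 2 of 11 (Stat3 and Nfkbia) had an unadjusted p under 0.05 in both comparisons with the young mice, a limit that 14.9% and 14.3% of all genes passed. Nfkbia, which encodes an inhibitor of NF-kB, was at 17.3 ± 3.98 FPKM at 3 months and 9.33 ± 1.87 FPKM at 24 months without overlap (log2 fold change -0.81, adjusted p = 0.0612, limma). Stat3, which carries the interleukin-6 signal, was the most abundant, at 27.9 ± 5.58 FPKM at 3 months and 20.6 ± 3.94 FPKM at 24 months (adjusted p = 0.233, limma). Macrophage markers were called in 0 of 12 cases at any age, and their summed level lay between 34.1 and 65.0 FPKM at 3 months, 52.3 and 85.0 FPKM at 12 months and 43.9 and 58.1 FPKM at 24 months. Markers of injured tubules (0 of 4 called) summed to between 6.75 and 21.4, 9.72 and 45.6, and 11.6 and 19.4 FPKM, and fibroblast markers (0 of 5 called) to between 20.03 and 45.6, 47.7 and 74.2, and 35.1 and 57.3 FPKM. Their part in the values of the complement genes was not tested.

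The genes whose log2(FPKM + 1) followed each member most closely over all 15 mice were sought among 13445 others with a mean of at least 1 FPKM, as a description. C3, C4b and Cfi named each other, C3 with Cfi (r = 0.89) and C4b (r = 0.88), and C4b with Cfi (r = 0.92), followed by Galnt11 for C3 (r = 0.84), Prps2 for C4b (r = 0.87) and Slc2a2 for Cfi (r = 0.86). No C1q gene was among the 3 closest of another. C1qa was closest to Ifi207 (r = 0.80), Ifi203-ps (r = 0.80) and Nudt14 (r = 0.79), C1qb to Polr3b (r = 0.83), Frrs1 (r = 0.75) and Ptrh2 (r = 0.73), and C1qc to Rpsa (r = 0.83), D330023K18Rik (r = 0.81) and Mrpl10 (r = 0.80). Cfb was closest to Mrfap1 (r = 0.96), Sord (r = 0.90) and Col6a3 (r = 0.87), C2 to Dnajc6 (r = 0.87), Eya2 (r = 0.82) and Wnt5b (r = 0.82), and Cd55 to Sqle (r = 0.91), Tmem237 (r = 0.89) and Ccdc86 (r = 0.86). The points share library and depth, and so many genes were searched that high values of r arise readily.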

How the data were processed

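Kidney RNA of 15 mice was sequenced by the authors as paired stranded libraries. The labels name ribosomal RNA removal and the paper's methods oligo(dT) selection, and this was not settled. Per the paper's methods and the labels, reads were aligned to GRCm38 (TopHat2, TopHat or HISAT2 are named) and transcripts were assembled by StringTie, which gave the deposited FPKM and coverage of each transcript. The authors also deposited estimated counts of circular RNAs, which are not whole numbers. Fold changes and p-values of the authors' own comparisons were not used.

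Gene values were sums of FPKM over transcripts of class =, c, j or o. They were tested as log2(FPKM + 1), a scale that understates changes of low genes, with limma 3.58.1 (R 4.3.3; empirical Bayes with a trend) on the 10 mice compared and genes above 0 in at least 1 of them, with Benjamini-Hochberg adjustment over all genes. Because FPKM are not counts, the count test of the study could not be used. Exact 2-sided permutation tests between 5 and 5 mice (smallest possible p 0.00794) and permutations of age-centred values within ages (100000) for correlations used scipy 1.17.1. The limma fit was tested on simulated data. Replicate numbers come from the titles and ages from the age label. The members and lists were chosen with earlier results of these data known. Named beyond the 9 members were other complement genes and inducers with an adjusted p under 0.05, otherwise the most abundant of each role, transcripts with at least 10% of a gene, and the 3 genes most like each member. Genes named outside this rule (Gm20547, C4a, Nfkbia and single markers) were chosen after their values were seen. Alternatives were another pseudocount, a minimum mean of 1 FPKM, TPM, scaling to the median, 1 fit of all mice, a robust prior, annotated transcripts only, leaving out each mouse, and a length-weighted sum and the summed C2-Cfb locus, both added after seeing the data. Promoters are RefSeq's (4 of 9 members matched) and joints were read from GENCODE vM21 transcripts. Gene-level depth in counts is unknown. The result of 1 marker list is not reported in full here.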

Additional observations from a re-analysis of the deposited data

Results flagged for a closer look

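At 3 months Gm20547, the C2-Cfb read-through gene, was far higher in replicate 8 (39.4 FPKM) than in the other 4 mice (11.8 to 13.6 FPKM). At 12 months the summed FPKM of C2, Cfb and Gm20547 was highest by a wide gap in replicate 21 (120.0 FPKM, against 96.3 to 102.2 FPKM). These were 2 of 33 groups of 5 mice examined, and chance marks about 1 in 20. Outside the main measurement, circular RNAs were listed from exons of C2, with a mean estimated count over 15 mice of 43.6 for the circle of exons 7 to 8 and of 214 for that of exons 4 to 8. The series holds no library in which such circles would be absent.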

How the results depend on the processing

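The count of 0 members called held in all 3 comparisons under every alternative with an adjusted p and without each mouse; the unadjusted p, alone or with an absolute log2 fold change above 1, gave 1 (C1qa) between 12 and 3 months. Of 46 other complement genes, the 1 called between 24 and 3 months became 0 with a minimum mean of 1 FPKM, 0 with a robust prior, 0 by an unadjusted p under 0.05 with an absolute log2 fold change above 1, 2 in 1 fit of all mice and 11 unadjusted, and 0 to 1 without single mice. Between 12 and 3 months all mice in 1 fit gave 1 and the unadjusted p 11, and between 24 and 12 months the unadjusted p gave 4. The log2 fold change kept its direction in 214 of 216 other fits. The exceptions were C1qc between 12 and 3 months with annotated transcripts only (0.12) and Cd55 between 24 and 12 months in TPM (0.0184). Leaving out 1 mouse turned the sign in 24 of 270 fits. Between 24 and 3 months the ranges were -0.23 to 0.54 for C1qa, -0.14 to 0.37 for C1qc, -0.0567 to 0.70 for C3, -0.0377 to 0.89 for C4b, -0.39 to 0.78 for Cfb, -0.18 to 0.58 for Cfi and -0.0184 to 0.32 for Cd55. Between 12 and 3 months C1qc ran from -0.48 to 0.22. Between 24 and 12 months the ranges were -0.66 to 0.16 for C1qb, -0.12 to 0.59 for C1qc, -0.56 to 0.0375 for Cfb and -0.14 to 0.0214 for Cd55. The correlation of C1qa and C1qb was 0.0656 without centring on age, and that of C1qa and C3 missed the threshold without centring (0.588), with a pseudocount of 0.1 (0.446) and in TPM (0.451). The cause was not tested. Over all genes, the 386 calls between 24 and 3 months became 678 in 1 fit of all mice, 239 with a robust prior and 190 with annotated transcripts only. The 79 between 12 and 3 months became 299, 24 and 27, and 48 with median scaling. The 1 between 24 and 12 months became 0 in 1 fit of all mice, 0 with a minimum mean and 3 with a pseudocount of 0.1. Median scaling gave 33 of 48 calls as higher between 12 and 3 months, beside 62 of 79. Transcript calls between 12 and 3 months were 6, 27 with a pseudocount of 0.1 and 26 in TPM. No paired analysis was possible because the ages share no mouse numbers. With 5 mice per age and this spread, changes within the intervals above were not excluded.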
